A study of Mus musculus with 6 samples.

Results

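The genes described here are the core kinases of the Hippo pathway, the related NDR kinases and their direct activators, measured in regulatory T cells (Tregs) from tumour-bearing mouse colon. They were chosen by gene symbol, with the brightest row taken where a gene had several. Of the 10 genes listed, 9 had a named row on the array, out of 19494 genes in all, and each of the 9 had 1 row. Stk3, which encodes MST2, was not analysed here. Stk38l had drawn attention to this family through its difference between the sorted fractions in these same samples, so the comparison of fractions is given for the members as a description, with no test.

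The samples were 6 one-colour Affymetrix arrays of Tregs, which had been sorted out of the lamina propria of tumour-bearing colon. All mice carried both reporters, Foxp3-RFP, which marks Tregs red, and GPR15-GFP, which reports the receptor GPR15 in green, and in all of them colorectal cancer was induced with the carcinogen azoxymethane (AOM) and the colitis-inducing dextran sulfate sodium (DSS). CD4-stained, red cells were split into a GPR15-GFP+ fraction (3 samples) and a GPR15-GFP- fraction (3 samples), written GPR15+ and GPR15- below. In both fractions the samples were titled with the numbers 1, 5 and 6. The labels used here give no untreated or tumour-free group, no age of the animals, and no word on whether a number stands for 1 animal or a pool, so every spread below is that between these samples.

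The Hippo pathway is a kinase cascade. MST1 and MST2, held by the scaffold SAV1, phosphorylate LATS1 and LATS2 and their coactivator MOB1, and the LATS kinases then phosphorylate YAP and TAZ, which keeps these coactivators out of the nucleus and away from their TEAD partners. The NDR kinases are the closest relatives of LATS, are likewise activated by MST kinases and bind MOB1. In lymphocytes the pathway is best known in another form: MST1 and the adaptor RASSF5 act downstream of the small GTPase RAP1 in integrin adhesion and migration, and MST1 is known to support the FOXO transcription factors.

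Values are log2 expression as the authors deposited them, so a difference of 1 is a doubling. The median of the arrays lay between 6.49 and 6.64 and their SD between 1.63 and 1.87; both arrays numbered 1 had the lowest SD. T cell markers were bright, with a mean over 9 measured genes of 10.30 to 10.59 in GPR15- and 10.49 to 10.64 in GPR15+ samples, and 8 of 9 Treg markers were brighter than the median gene. The exception was Il2ra, which encodes the Treg surface marker CD25, at a mean level of 5.17. Foxp3 was not analysed here. Gpr15 itself lay lower in the samples labelled GPR15+, by -0.65 ± 0.22 (SE), without overlap. Ptprc, the leukocyte marker CD45, and Cd4 differed by 0.15 ± 0.22 and 0.14 ± 0.27 (SE). The direction of Gpr15 goes against the labels, so each direction below rests on the labels alone. With limma and Benjamini-Hochberg adjustment over all genes, 0 genes were higher and 0 lower at an adjusted p under 0.05 (smallest adjusted p = 0.540), while 1214 had an unadjusted p under 0.05 (2411 with the sample number as a block). In a bulk sample, fewer cells that express a gene and less RNA per cell cannot be told apart.

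The promoter windows of both NDR and both LATS genes are shown, because within each of these closely related pairs 1 member differed between the fractions by more than the other. Each window runs from 250 bases before to 50 bases after the start of a transcript, 5′ to 3′ on the gene's strand, from RefSeq (build GRCm38.p6), where 9 of the 10 listed genes matched. Stk38l is at chr6:146724680-146724979 (plus strand), Stk38 at chr17:29007946-29008245 (minus strand), Lats1 at chr10:7680959-7681258 (plus strand) and the upstream start of Lats2 at chr14:57746074-57746373 (minus strand). Capitals mark exact matches, on either strand, to 6 motifs: TEAD (GGAATG), GC box (GGGCGG), ETS (CCGGAAG), NF-Y (CCAAT), CRE, the cyclic AMP response element (TGACGTCA), and FOXO (GTAAACA).
Stk38l: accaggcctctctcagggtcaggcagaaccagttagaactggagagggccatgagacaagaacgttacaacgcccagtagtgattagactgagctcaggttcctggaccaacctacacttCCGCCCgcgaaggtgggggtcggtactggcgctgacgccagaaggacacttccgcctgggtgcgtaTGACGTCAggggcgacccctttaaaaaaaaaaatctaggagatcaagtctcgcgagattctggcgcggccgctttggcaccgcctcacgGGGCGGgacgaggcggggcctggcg
Stk38: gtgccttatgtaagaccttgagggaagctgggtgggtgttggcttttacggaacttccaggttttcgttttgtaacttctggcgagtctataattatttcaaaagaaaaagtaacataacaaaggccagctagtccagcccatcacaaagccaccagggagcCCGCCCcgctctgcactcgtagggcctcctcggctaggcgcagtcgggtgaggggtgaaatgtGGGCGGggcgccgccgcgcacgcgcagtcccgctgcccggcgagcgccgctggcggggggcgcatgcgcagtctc
Lats1: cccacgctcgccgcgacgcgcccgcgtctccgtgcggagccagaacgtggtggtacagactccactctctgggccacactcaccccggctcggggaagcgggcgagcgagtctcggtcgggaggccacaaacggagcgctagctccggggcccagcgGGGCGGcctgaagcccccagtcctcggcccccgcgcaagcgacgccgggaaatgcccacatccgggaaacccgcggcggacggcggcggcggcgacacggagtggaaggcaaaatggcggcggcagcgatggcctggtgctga
Lats2: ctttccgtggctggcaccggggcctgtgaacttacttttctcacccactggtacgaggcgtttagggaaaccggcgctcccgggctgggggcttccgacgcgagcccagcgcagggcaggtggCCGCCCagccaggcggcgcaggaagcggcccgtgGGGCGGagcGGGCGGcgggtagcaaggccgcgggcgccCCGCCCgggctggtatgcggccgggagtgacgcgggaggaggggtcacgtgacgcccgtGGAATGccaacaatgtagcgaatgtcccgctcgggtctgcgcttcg

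The windows of Stk38l and Stk38 are alike in composition, with 60% GC each and 23 and 24 CpG sites. Both hold 2 GC boxes, a motif found in 35.7% of the 32851 windows of all genes. The window of Stk38l also holds 1 CRE, 64 bases before the start, which the window of Stk38 does not hold and which is found in 1.79% of all windows. The Lats2 window holds 1 TEAD motif, 4 bases after the start, and 4 GC boxes, while the Lats1 window holds 1 GC box and no TEAD motif. The TEAD letters occur in 14.7% of all windows, and Lats2 is a textbook target of YAP and TEAD. Among the other members, the windows of Sav1 and Mob1a also hold 1 TEAD motif each. A second Lats2 window, at a start further downstream, held none of the 6 motifs. These matches describe letters in the windows, and binding was not measured.

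Stk38l encodes NDR2, a serine/threonine kinase with roles in cell polarity and integrin trafficking. Its log2 level was 6.78, 6.96 and 6.91 in the GPR15- samples numbered 1, 5 and 6, and 8.22, 8.12 and 7.92 in the GPR15+ samples of the same numbers. All 3 GPR15+ samples were high, all 3 GPR15- samples were low, and the lowest GPR15+ value lay well above the highest GPR15- value. The means were 8.09 ± 0.15 (SD, n = 3) and 6.88 ± 0.10 (SD, n = 3), a difference of 1.20 ± 0.16 (SE), or 2.30-fold. Within the numbers 1, 5 and 6 the difference was 1.44, 1.16 and 1.01. By the size of its difference in either direction Stk38l ranked 45 among 19494 genes.

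Stk38 encodes NDR1, the near relative of NDR2. It was measured at 8.19, 8.81 and 8.59 in the GPR15- samples numbered 1, 5 and 6, and at 8.97, 9.02 and 9.22 in the GPR15+ samples. These fractions did not overlap either, but GPR15- replicate 5 came close to GPR15+ replicate 1. The difference was 0.54 ± 0.20 (SE), or 1.46-fold, and lay above 0 within every number, at 0.78, 0.21 and 0.64. Set within each array, the ratio of Stk38l to Stk38 was higher in the GPR15+ sample of every number, by 0.66, 0.95 and 0.37 log2 units, with a mean of 0.66 ± 0.29 (SD, n = 3 pairs).

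**Figure D1:**
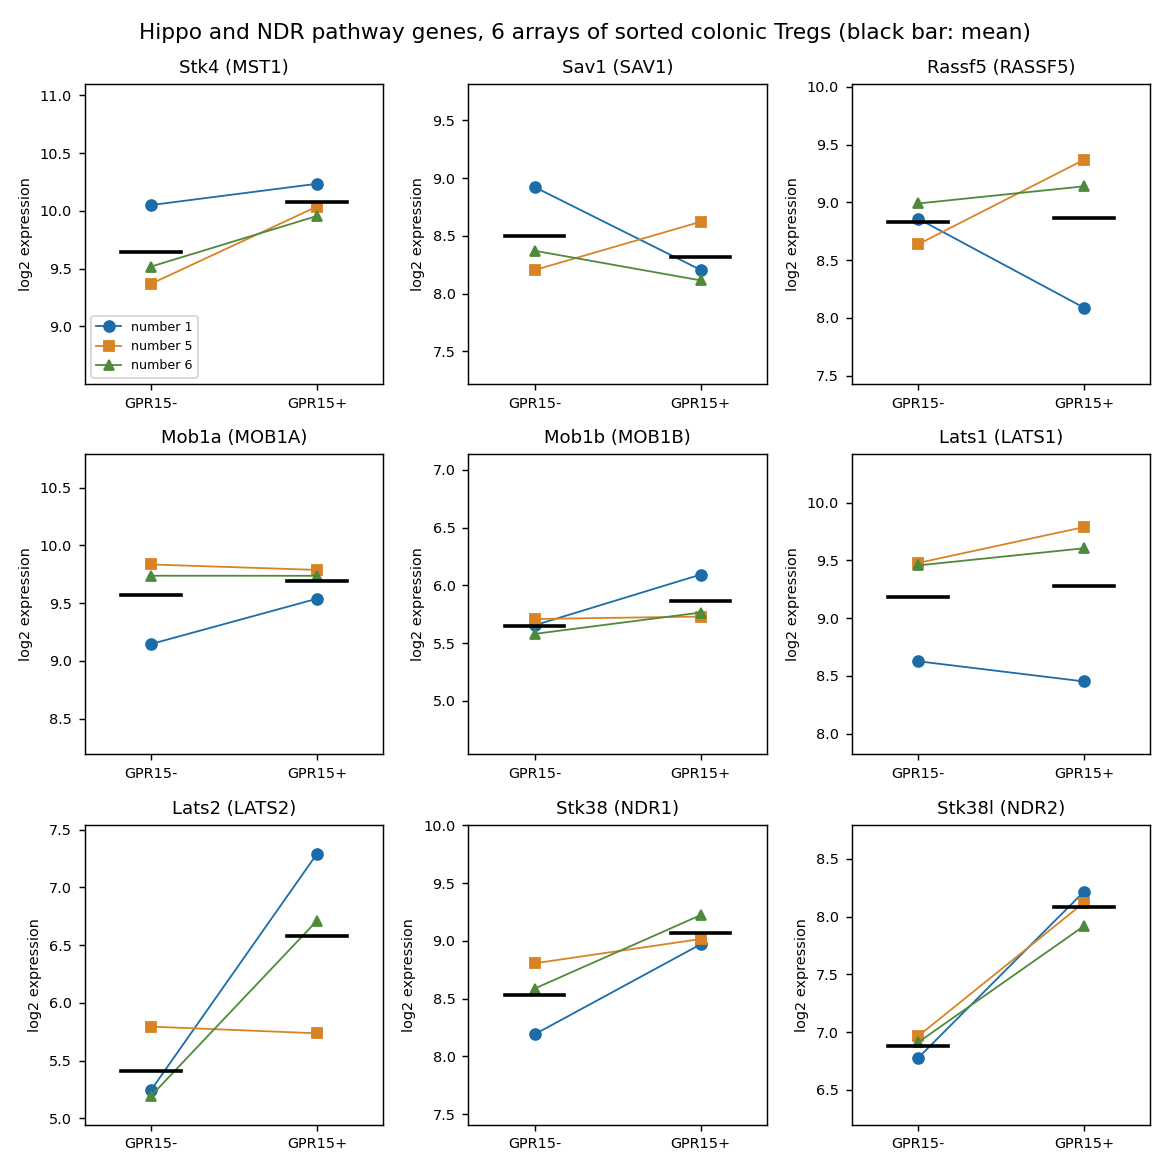
Log2 expression (vertical axis) of the 9 measured genes in GPR15- and GPR15+ samples (horizontal axis); lines join samples of equal number, black bars are means of 3, and all panels span the same height. Stk38l separates the fractions, from 6.78 to 6.96 against 7.92 to 8.22, whereas Lats1 separates number 1 from the others.

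Lats2 encodes LATS2, a kinase that inactivates YAP and TAZ. Its level was 5.24, 5.79 and 5.19 in the GPR15- samples numbered 1, 5 and 6, and 7.29, 5.74 and 6.71 in the GPR15+ samples. The GPR15+ samples numbered 1 and 6 were high, but the GPR15+ sample numbered 5 lay among the GPR15- samples, so the fractions overlapped. The mean difference of 1.17 ± 0.38 (SE), or 2.25-fold, was nearly that of Stk38l, and it joined values of 2.05, -0.06 and 1.52 within the numbers 1, 5 and 6. It was 0.73 without both arrays numbered 1. In all 3 GPR15- samples, and in the GPR15+ sample numbered 5, Lats2 lay below its array's median.

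Lats1 encodes LATS1, the other kinase of the pair. It lay at 8.63, 9.48 and 9.46 in the GPR15- samples numbered 1, 5 and 6, and at 8.45, 9.79 and 9.61 in the GPR15+ samples. Here the low samples were those numbered 1, in both fractions, and the fractions overlapped. The difference between fractions was 0.09 ± 0.39 (SE), with -0.17, 0.31 and 0.15 within the numbers, and it lay below 0 after quantile normalization or removal of the intensity trend. The ratio of Lats1 to Lats2 within an array shifted by -2.22, 0.37 and -1.37 in the GPR15+ sample of each number, so the pair showed no shared direction.

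Stk4 encodes MST1, the upstream kinase. Its level was 10.05, 9.37 and 9.52 in the GPR15- samples numbered 1, 5 and 6, and 10.23, 10.04 and 9.96 in the GPR15+ samples. The GPR15+ sample was the higher of the pair in each number, by 0.18, 0.67 and 0.44, yet the GPR15- sample numbered 1 lay above 2 GPR15+ samples and the fractions overlapped. The mean difference was 0.43 ± 0.22 (SE), or 1.35-fold.

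Sav1, the scaffold that holds MST kinases to LATS, was the 1 member with a mean below 0, at -0.19 ± 0.24 (SE). It lay at 8.92, 8.20 and 8.37 in the GPR15- samples and at 8.21, 8.62 and 8.11 in the GPR15+ samples, with differences of -0.72, 0.42 and -0.26 within the numbers. The fractions overlapped, and the difference was 0.08 without both arrays numbered 1. Rassf5, the adaptor that links RAP1 to MST1, lay at 8.86, 8.64 and 8.99 in GPR15- and at 8.09, 9.37 and 9.14 in GPR15+ samples. The GPR15+ sample numbered 1 was the lowest of the 6 and the other GPR15+ samples were the highest, which left a mean difference of 0.04 ± 0.33 (SE). Without both arrays numbered 1 it was 0.44.

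The coactivators MOB1A and MOB1B, which bind and switch on LATS and NDR kinases, differed little. Mob1a lay at 9.15, 9.83 and 9.74 in the GPR15- samples and at 9.54, 9.79 and 9.74 in the GPR15+ samples. The sample numbered 1 was the lowest of each fraction, and the difference between fractions was 0.11 ± 0.22 (SE). Mob1b lay at 5.65, 5.71 and 5.58 in GPR15- and at 6.09, 5.73 and 5.76 in GPR15+ samples. These did not overlap, but the nearest samples were those numbered 5, which differed by 0.02, and all 6 values lay below the array medians. The difference of Mob1b was 0.22 ± 0.17 (SE), and 0.10 without both arrays numbered 1.

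Across the 9 measured members the differences ran from -0.19 to 1.20 with a median of 0.22, beside a median of -0.06 over all genes. The mean of GPR15+ samples was the higher in 8 of the 9, and in 6 of the 9 after quantile normalization or removal of the intensity trend; 40.8% of all genes had a difference above 0. Of the members, 3 were higher without overlap (Stk38l, Stk38 and Mob1b) and 0 were lower without overlap, beside 4.12% and 9.17% of all genes. The GPR15+ sample was the higher in all 3 numbers for 4 members (Stk38l, Stk38, Stk4 and Mob1b), beside 13.4% of all genes, and the lower in all 3 for 0, beside 23.6%. Since this comparison led to the family, nothing is read from these counts. The median over the members was 0.39, 0.31 and 0.18 within the numbers 1, 5 and 6.

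**Figure D2:**
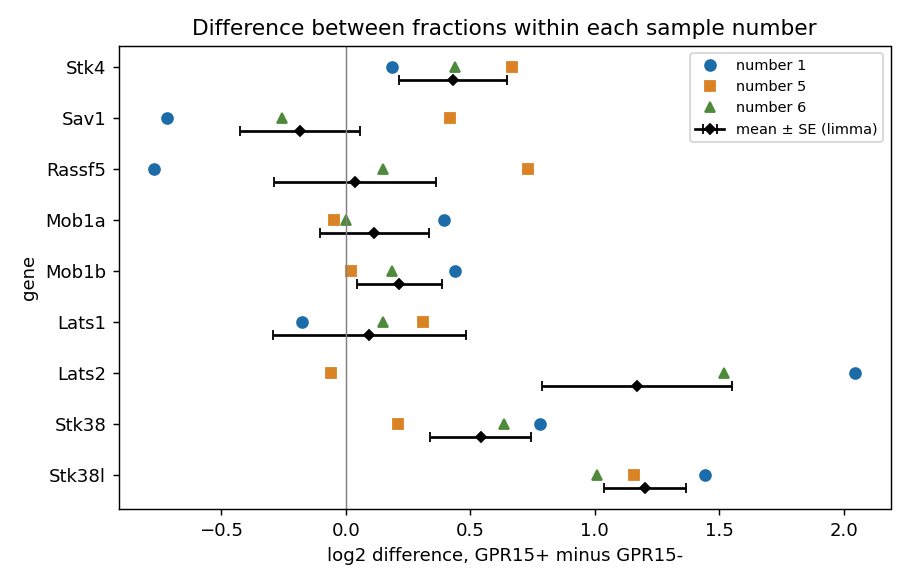
Log2 difference, GPR15+ minus GPR15- (horizontal axis), for each gene (vertical axis): coloured points are the differences within the numbers 1, 5 and 6, and black diamonds with bars are means ± limma's SE. Stk38l lies between 1.01 and 1.44 in every number, while Lats2 spans -0.06 to 2.05.

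The sample number was a separate source of variation by which these genes were not chosen, and it could be tested. For Stk38l this test is not independent of the choice. A difference that stands out over the spread within each fraction leaves little variation between the numbers. With limma's F test of the number, fitted beside the fraction and adjusted over all genes, 354 genes passed at an adjusted p under 0.05, or 1.82%, and 0 of the 9 members did. That total rose to 1988 when GPR15- replicate 1 was dropped and to 590 when GPR15- replicate 6 was, and came down to 118 on dropping GPR15+ replicate 5 and to 96 on dropping GPR15+ replicate 1. Lats1 came nearest (limma adjusted p = 0.063), at means of 8.54, 9.63 and 9.53 in the numbers 1, 5 and 6, and passed without GPR15- replicate 1 (limma adjusted p = 0.0265). Its adjusted p from limma lay between 0.0536 and 0.189 in the other alternatives. Mob1a followed the same order, at 9.34, 9.81 and 9.74 (limma adjusted p = 0.352). Its limma adjusted p was 0.265 with each array centred on its median and 0.970 after quantile normalization. Stk38l had the most even levels, at 7.50, 7.54 and 7.42 (limma adjusted p = 0.902), from which nothing is read, given how it was chosen.

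Of the sum of squares of Stk38l over the 6 arrays, 97.1% lay between the fractions and 0.752% between the numbers. Both shares follow in part from the choice of Stk38l by its fraction difference. For Lats1 the order was turned, with 0.881% between fractions and 95.1% between numbers. In the deposited values Mob1a was likewise led by the number, at 76.5%, though its number test did not pass. For Sav1 and Rassf5 most of the variation, 67.8% and 57.5%, was in neither, that is, in differences between fractions that were unlike from number to number. The mean over all genes was 23.2% for fraction, 48.9% for number and 27.9% for the rest. What the numbers stand for is not given in the labels. The Y-linked gene Uty was lower in number 6 (mean 4.43) than in the numbers 1 (7.56) and 5 (8.63; limma adjusted p = 0.00923), and the part of such differences between numbers in the members' values was not tested.

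**Figure D3:**
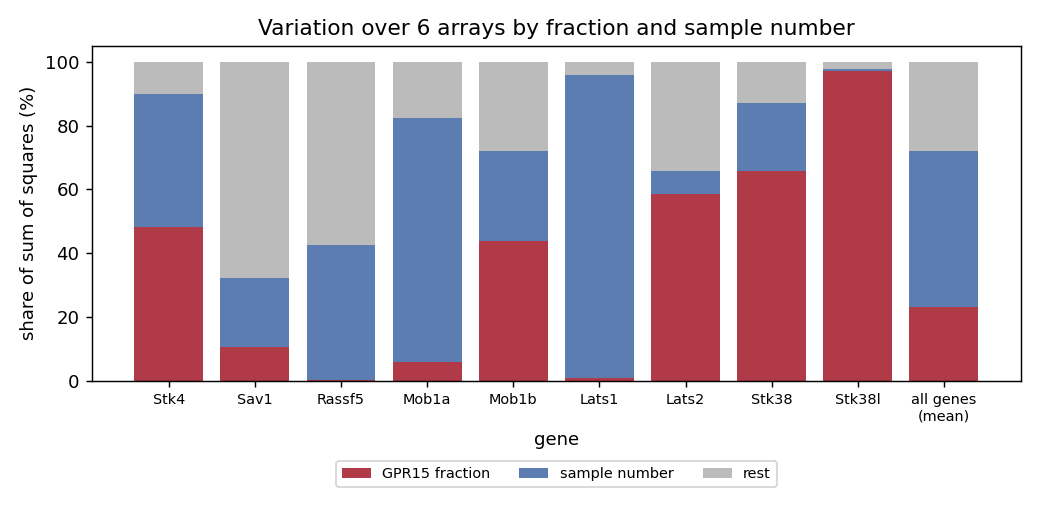
Share of each gene's sum of squares over the 6 arrays (vertical axis, percent) that lies between GPR15 fractions, between sample numbers, or in neither, for the 9 genes and as the mean over all genes. Stk38l is at 97.1% for fraction and Lats1 at 95.1% for number.

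The rest of the pathway was described through 9 lists of related genes, fitted with all genes. No gene of any of them passed for the fraction (limma adjusted p of 0.773 or more over all genes), so the members named are given as values. For reference, 59.2% of all genes lay below 0.

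YAP and TAZ, which LATS kinases restrain, and the TEAD and VGLL factors that act with or against them all lay lower in GPR15+ samples, 10 of 10, with a median of -0.26. The direction was the same for 10 of 10 with each rescaling (medians -0.19, -0.18 and -0.14) and for 9 of 10 without both arrays numbered 1. Within number 1 it held for 6 of 10 (median -0.10), within 5 for 9 and within 6 for all 10. The median was -0.14 on dropping GPR15- replicate 1 or GPR15+ replicate 5. The largest differences were those of Tead4, a TEAD factor, at -0.42 ± 0.18 (SE), and Vgll3, a TEAD cofactor, at -0.39 ± 0.19 (SE). Yap1 itself, at -0.14 ± 0.23 (SE), was dim, between 4.53 and 5.21 on the 6 arrays. Only 5 of the 10 genes were brighter than the median gene, and Tead4, at a mean level of 5.94, was not among them. Among genes that YAP and TEAD are known to induce, 15 of 18 lay below 0 with a median of -0.16, and 13 of 18 with a median of -0.04 once the intensity trend was removed; dropping GPR15- replicate 6 gave a median of -0.10 and dropping GPR15+ replicate 1 one of -0.26. Ankrd1, a nuclear ankyrin-repeat protein, differed by -0.39 ± 0.21 (SE) and Ptpn14, a phosphatase that binds YAP, by -0.33 ± 0.19 (SE). Lats2, the YAP and TEAD target described above, was not in this list and lay the other way, at 1.17 ± 0.38 (SE). Of the 18 genes in the list 6 were brighter than the median gene. Ankrd1 and Ptpn14 were dimmer than it, at mean levels of 6.00 and 6.05. Epithelial markers moved the same way, with 10 of 12 below 0, a median of -0.23 and a mean level of 6.47 to 6.60 in GPR15- against 6.18 to 6.44 in GPR15+ samples. Among them Epcam, which defines epithelial cells, differed by 0.00 ± 0.16 (SE) and Krt8, a keratin, by -0.36 ± 0.35 (SE). Krt8 was higher in the GPR15+ sample of number 1, with 0.80, -1.08 and -0.79 within the numbers 1, 5 and 6. Stromal markers had 7 of 9 below 0, at a mean level of 6.46 to 6.62 against 6.37 to 6.57, and macrophage and granulocyte markers 8 of 9, at 5.89 to 6.14 against 5.55 to 6.12. B and plasma cell markers had 5 of 7 below 0, at 6.58 to 6.78 against 6.27 to 6.57, and CD8 T and NK cell markers 6 of 8, at 6.15 to 6.38 against 5.89 to 6.16. The largest differences of these lists were those of Jchain, at -1.13 ± 0.55 (SE), and Gzma, at -1.40 ± 0.37 (SE). Jchain overlapped, with -1.71, -1.60 and -0.07 within the numbers 1, 5 and 6. Gzma did not overlap, while Prf1 lay the other way without overlap, at 0.39 ± 0.22 (SE). Of the T cell and Treg markers, 3 of 9 and 5 of 9 lay below 0. Epcam, Krt8 and Yap1 were named for their roles, and Jchain, Gzma and Prf1 for their differences, outside the rule for named genes. The part of RNA from such cells in the YAP and TEAD values was not tested.

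Partners and substrates of the NDR kinases lay above 0 in 9 of 11, with a median of 0.18, and in 8 of 11 after quantile normalization or removal of the trend. Among the 9, Fry, S100b and Sec31a lay close to 0, at 0.04 ± 0.17, 0.01 ± 0.22 and 0.01 ± 0.21 (SE). The size of the lean varied with single arrays, while the median stayed above 0 on dropping any 1 of them. It was 7 of 11 with a median of 0.04 on dropping GPR15- replicate 1 and 0.03 on dropping GPR15+ replicate 5. It was 10 of 11 with 0.11 on dropping GPR15- replicate 6, and 9 of 11 with 0.44 on dropping GPR15+ replicate 1. Without both arrays numbered 1 it was 8 of 11 with 0.27. Fryl, a very large scaffold of the Furry family, whose members bind NDR kinases, had the largest difference, at 0.46 ± 0.16 (SE). It lay at 10.01, 10.27 and 10.28 in GPR15- and at 10.67, 10.68 and 10.57 in GPR15+ samples, which did not overlap. Rab3ip, the exchange factor Rabin8 that NDR2 phosphorylates in cilium formation, differed by 0.40 ± 0.38 (SE). The more distant kinases of the same AGC group lay the other way, with 6 of 7 below 0 and a median of -0.23, and 5 of 7 after quantile normalization or removal of the trend. The median was -0.08 on dropping GPR15- replicate 6, -0.15 on dropping GPR15+ replicate 5 and -0.14 on dropping GPR15+ replicate 6. The cytoskeletal kinase Cdc42bpg was at -0.28 ± 0.21 (SE) and the mitotic kinase Mastl at -0.26 ± 0.20 (SE). Mastl was dim, at a mean level of 4.47, and differed by -0.04, -0.09 and -0.65 within the numbers 1, 5 and 6.

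In the lymphocyte branch, 12 of 16 genes of the RAP1 and LFA-1 arm lay above 0 with a median of 0.12, and 9 of 16 with medians of 0.04 and 0.05 after quantile normalization or removal of the trend. This lean rested on single arrays: on dropping GPR15+ replicate 6 it was 8 of 16 with a median of 0.00. On dropping GPR15- replicate 1 it was 9 of 16 with 0.04, and on dropping GPR15+ replicate 5 it was 9 of 16 with 0.11. The median was 0.26 on dropping GPR15- replicate 6 and 0.25 on dropping GPR15+ replicate 1. Rasgrp1, an exchange factor of RAS below the T cell receptor, differed by 0.47 ± 0.20 (SE), and Dock8, an exchange factor of CDC42 needed for T cell migration, by 0.41 ± 0.19 (SE). By sample number 2 genes of this arm passed: Itgal, the integrin chain of LFA-1 (means 8.69, 9.93 and 9.84 in the numbers 1, 5 and 6; limma adjusted p = 0.0404), and Dock2, an exchange factor of RAC (8.32, 10.44 and 10.33; limma adjusted p = 0.0277). Both were lowest in number 1, as was Lats1. Of the other lists of related genes 1 gene passed by number, the YAP target Crim1 (7.68, 9.77 and 9.52, limma adjusted p = 0.0203). Among the cell markers, 1 Treg marker and 1 B and plasma cell marker also passed.

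FOXO factors and their targets lay above 0 in 9 of 11, with a median of 0.15, and in 7 of 11 with medians of 0.06 and 0.08 after quantile normalization or removal of the trend. Within number 6 the list lay the other way, with 7 of 11 below 0 and a median of -0.05. Dropping GPR15- replicate 1 left 6 of 11 above 0 with a median of 0.01 and dropping GPR15+ replicate 5 left 7 of 11 with 0.05, while dropping GPR15- replicate 5, GPR15- replicate 6 or GPR15+ replicate 1 raised the median to 0.23, 0.23 and 0.33. Bcl2l11, which encodes the pro-apoptotic protein BIM, had the largest difference of all 9 lists, at 0.83 ± 0.21 (SE) or 1.78-fold. Its level was 7.68, 7.05 and 7.18 in GPR15- and 8.30, 8.12 and 7.98 in GPR15+ samples. The fractions did not overlap, and the GPR15+ sample was the higher in every number. S1pr1, the receptor by which T cells leave tissue, differed by 0.52 ± 0.27 (SE), and Foxo1 by 0.15 ± 0.21 (SE).

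The 3 lists further upstream had no clear side. Regulators above MST and LATS had 10 of 21 above 0 and a median of -0.03, which turned sign with each rescaling. Wwc2, a relative of the LATS activator KIBRA, was at -0.66 ± 0.43 (SE) and the atypical cadherin Fat4 at -0.52 ± 0.26 (SE). Fat4 was dim, at a mean level of 4.92, and differed by -0.46, -1.18 and 0.09 within the numbers 1, 5 and 6. RASSF and MOB relatives had 5 of 10 above 0 and a median of -0.07, which was 0.21 without both arrays numbered 1. Rassf6 was at -0.57 ± 0.22 (SE) and Rassf4 at -0.46 ± 0.17 (SE), both dim. The STRIPAK complex, a phosphatase assembly that opposes MST kinases, was listed together with the kinases Stk24, Stk25 and Stk26. This joint list had 7 of 12 above 0 and a median of 0.20. Those kinases all lay above 0, at 0.21, 0.38 and 0.30, and the 5 genes below 0 were all of the assembly. The median is therefore not that of the assembly alone. Within number 1, 7 of 12 lay below 0 (median -0.22), and the median was 0.04 on dropping GPR15+ replicate 5. In this list were the STRIPAK subunit Fgfr1op2 at 0.55 ± 0.21 (SE) and the phosphatase scaffold Ppp2r1a at -0.39 ± 0.35 (SE).

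**Figure D4:**
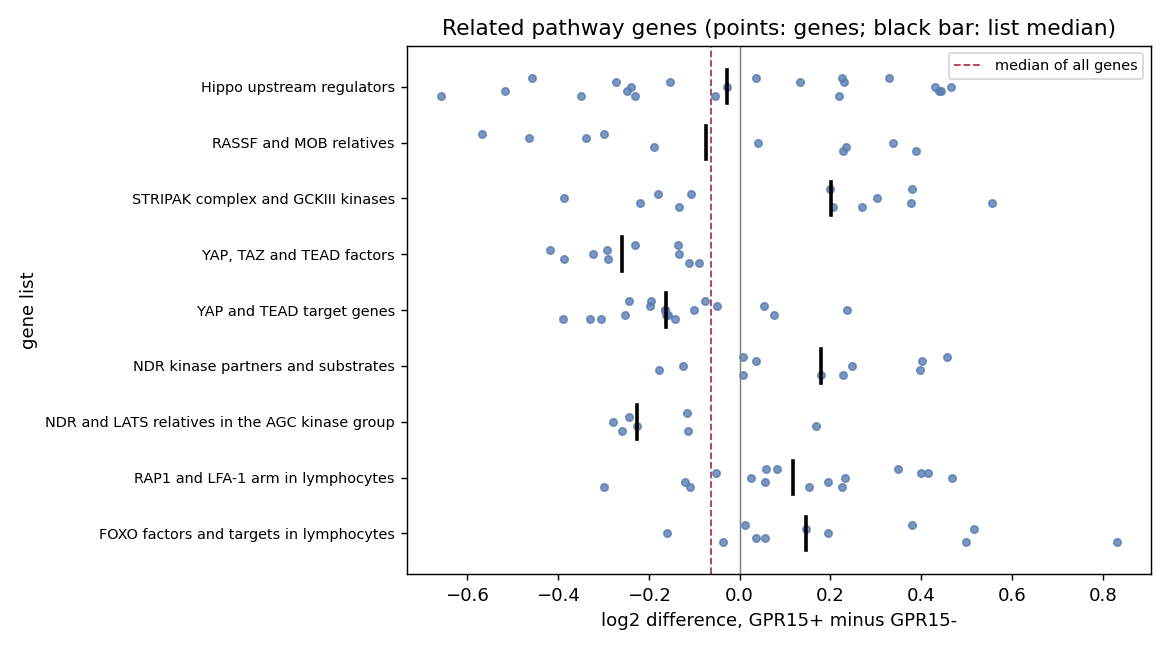
Log2 difference, GPR15+ minus GPR15- (horizontal axis), of each gene in the 9 related lists (vertical axis), with the list median as a black bar and the median of all genes, -0.06, as a dashed line. The 10 YAP, TAZ and TEAD genes all lie below 0, and Bcl2l11 in the FOXO list lies highest at 0.83.

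Of named genes above the median level, the 3 whose profile over the 6 arrays lay closest to that of Stk38l were Atrx, a chromatin remodeller, Il1r1, an interleukin-1 receptor, and Plin2, a coat protein of lipid droplets. Likeness was the root mean square distance between profiles centred on their own mean, at 0.15, 0.19 and 0.19 log2 units among 9329 candidate genes. Atrx differed between fractions by 1.42, 0.91 and 1.29 within the numbers 1, 5 and 6, Il1r1 by 1.16, 1.06 and 1.44, and Plin2 by 1.13, 1.37 and 0.58. The likeness was sought on these 6 arrays, where any gene with a fraction difference of that size will rank high.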

How the data were processed

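The authors deposited 1 table of log2 values per probe set from 6 arrays. Per the submitters' processing notes they were made by RMA, which corrects the background, normalizes quantiles and summarises probes, with no version given; the array's annotation build and detection calls are not given in the sources used here. Of 22142 rows, 19527 had 1 gene symbol, and the row with the highest mean was kept for each of 19494 genes. Differences between fractions and their standard errors came from a 2-group fit in limma 3.58.1 (R 4.3.3), which leaves the sample number out. With the number as a block the SE of Lats1 was 0.17 instead of 0.39, while that of Stk38l stayed at 0.16. P-values were adjusted by Benjamini and Hochberg's method across the whole table, with a threshold of 0.05. The sample number was tested with limma's F test beside the fraction. With 3 samples a fraction, an exact 2-sided permutation test of 1 gene could not go below 0.1.

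Both samples numbered 1 deviated together from their fraction means (correlation 0.567), as did those numbered 5 (0.381) and 6 (0.319). On this ground differences within equal numbers are given. Unlike numbers gave correlations almost as high between 5 and 6 (0.315 and 0.213) and negative ones with 1. Deviations from a mean of 3 sum to 0 in each fraction, so a likeness within number 1 alone would favour such signs. The pairing of 5 and 6 is therefore hardly set by these correlations. Uty, however, lay at 8.29 (GPR15-) and 8.97 (GPR15+) in number 5, and at 4.60 and 4.27 in number 6. In this gene both fractions of a number lay alike. The fits were checked on simulated data with changes larger than any seen in the members. That check does not show how well differences of the size reported here are recovered. Members and gene lists were chosen with earlier results of these data known. The rule named all members, Gpr15, Ptprc, Cd4, Uty, the 2 largest differences of each list and the 3 profiles nearest to Stk38l. Named outside it were Yap1, Il2ra, Epcam, Krt8, Foxo1, Gzma, Prf1, Jchain, Fry, S100b, Sec31a, Stk24, Stk25 and Stk26. So were the genes of the related lists that passed by number (Itgal, Dock2 and Crim1). Alternatives were other scalings, array weights, a filter on dim genes, an intensity trend, a replicate block and left-out arrays; for the gene lists they were added after seeing the data.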

Additional observations from a re-analysis of the deposited data

How the results depend on the processing

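For the fraction, 0 genes passed in every setting but array weights, where limma called 2174; that weighting did not reach its convergence tolerance and gave GPR15+ replicate 6 a weight of 6.56 and GPR15+ replicate 1 one of 0.191. With the replicate block 0 genes passed (smallest limma adjusted p = 0.0750), so the block changed no call. It cannot change a difference here, since each number holds 1 sample of each fraction, and bears only on the SE and p-value. For the sample number, 354 genes passed, 137 after quantile normalization, 130 with array weights, and between 96 and 1988 when single arrays were dropped, the extremes being those without GPR15+ replicate 1 and without GPR15- replicate 1. Dropping GPR15- replicate 6 gave 590, and dropping GPR15+ replicate 5 gave 118. The median over the members, 0.22, was 0.33 with the intensity trend removed, 0.42 without both arrays numbered 1, and 0.22 to 0.43 when single arrays were dropped, GPR15+ replicate 1 giving the highest value. The differences of Stk38l (1.03 to 1.29), Lats2 (0.73 to 1.59), Stk38 (0.37 to 0.68), Stk4 (0.29 to 0.63) and Mob1b (0.10 to 0.36) stayed above 0 in every alternative run, that of Stk38l being lowest with array weights. Those of Sav1, Rassf5, Mob1a and Lats1 changed sign in at least 1. The cause of these shifts was not tested.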
